A study of Mus musculus with 6 samples.

Results

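Lysosomal enzymes and lysosomal membrane proteins were examined in newborn mouse lenses without Hsf4, a lens heat shock transcription factor. The 34 genes were chosen by name: glycosidases, sulfatases, cathepsins and other peptidases, proteins of sphingolipid and cholesterol handling, and proteins of the lysosomal membrane. Of these, 32 (94.1%) were measured by a probe set that the array's annotation assigns to that gene alone, out of 12393 genes so measured. Cd63, a membrane tetraspanin, and Arsb, a sulfatase, were not analysed here. The samples were 3 Hsf4-null and 3 wild-type lens RNA preparations, called biological replicates in the labels, from newborn ICR mice. The labels name no drug or other agent for either group. Whether a preparation held lenses of 1 animal or of several, and how the null allele was made, the labels and methods used here do not say. Each preparation was amplified and hybridized to an Affymetrix array. Values are log2 intensities of a probe set, a group of short oligonucleotides read together, and can be set against each other only for the same probe set.

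Lysosomes are acidic organelles in which hydrolases break down material delivered by endocytosis and autophagy. Glycosidases and sulfatases remove sugars and sulfate groups from glycosaminoglycans, glycoproteins and glycolipids, cathepsins cut proteins, and the membrane proteins hold the compartment together, acidify it and pass its products out. Lens fiber cells lose their nuclei and other organelles as they mature, and the nuclear DNA of these cells is degraded by DNase II beta, an acid nuclease of the lysosomal compartment. Many lysosomal genes carry E-box sequences near their start that the factor Tfeb and its relatives bind.

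The arrays were alike in scale and followed their labels. Hsf4 had log2 intensities of 4.26, 4.09 and 3.78 in Hsf4-null lenses, against 9.09, 9.39 and 9.56 in wild-type lenses (difference -5.30, SE 0.16, limma adjusted p = 9.54e-06). The labels and methods used here do not place its probe set inside or outside the deleted sequence. Array medians were between 5.22 and 5.38. All 8 measured lens fiber markers lay above every array's median, and their summed linear intensity was 85460 to 93120 in Hsf4-null lenses and 98140 to 100600 in wild-type lenses. Of the 8, 1 passed the test, Bfsp1, a beaded filament protein. It read 11.65, 11.78 and 11.60 in Hsf4-null lenses, against 13.36, 13.34 and 13.28 in wild-type lenses (difference -1.65, limma adjusted p = 0.000131). The other 7 differed by -0.15 to 0.02. The sums include Bfsp1, and no sum was made without it, so they do not show a general fall of fiber markers. Over all genes, 2.88% differed between the genotypes at an adjusted p under 0.05 in limma, which fits a linear model to every probe set and lets all of them inform the estimate of spread, and over all probe sets it called 602 of 22626 (2.66%).

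The lysosomal genes mostly differed little between Hsf4-null and wild-type lenses, and the 2 that passed the test were both glycosidases with higher transcript levels without Hsf4. Idua, alpha-L-iduronidase, was 3.33-fold higher and Glb1, beta-galactosidase, was 1.73-fold higher in Hsf4-null lenses. These were 2 of 32 genes (6.25%) higher at an adjusted p under 0.05, beside 0.775% of all genes on the array. None of the 32 was lower, beside 2.11% of all genes. At an unadjusted limma p under 0.05, 4 were higher, beside 7.34% of all genes, and 2 were lower, beside 8.38%. A set of this size gives only a coarse share, and no test was made of the list. The list was also chosen with earlier results of these data known, which limits what these shares can show. The 32 genes also had brighter probe sets than the array as a whole, with 28 above every array's median, beside 6413 of all 12393 genes. With dim probe sets left out, 165 of 11313 probe sets were called higher and 446 lower. Of the lysosomal genes, 29 then remained, with 2 called higher and 0 lower. The median difference of the 32 genes was 0.06 on the log2 scale (null minus wild type), beside 0.01 over all genes. Differences were positive for 19 genes and negative for 13, and ran from -0.40 for Naglu to 1.74 for Idua.

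**Figure D1:**
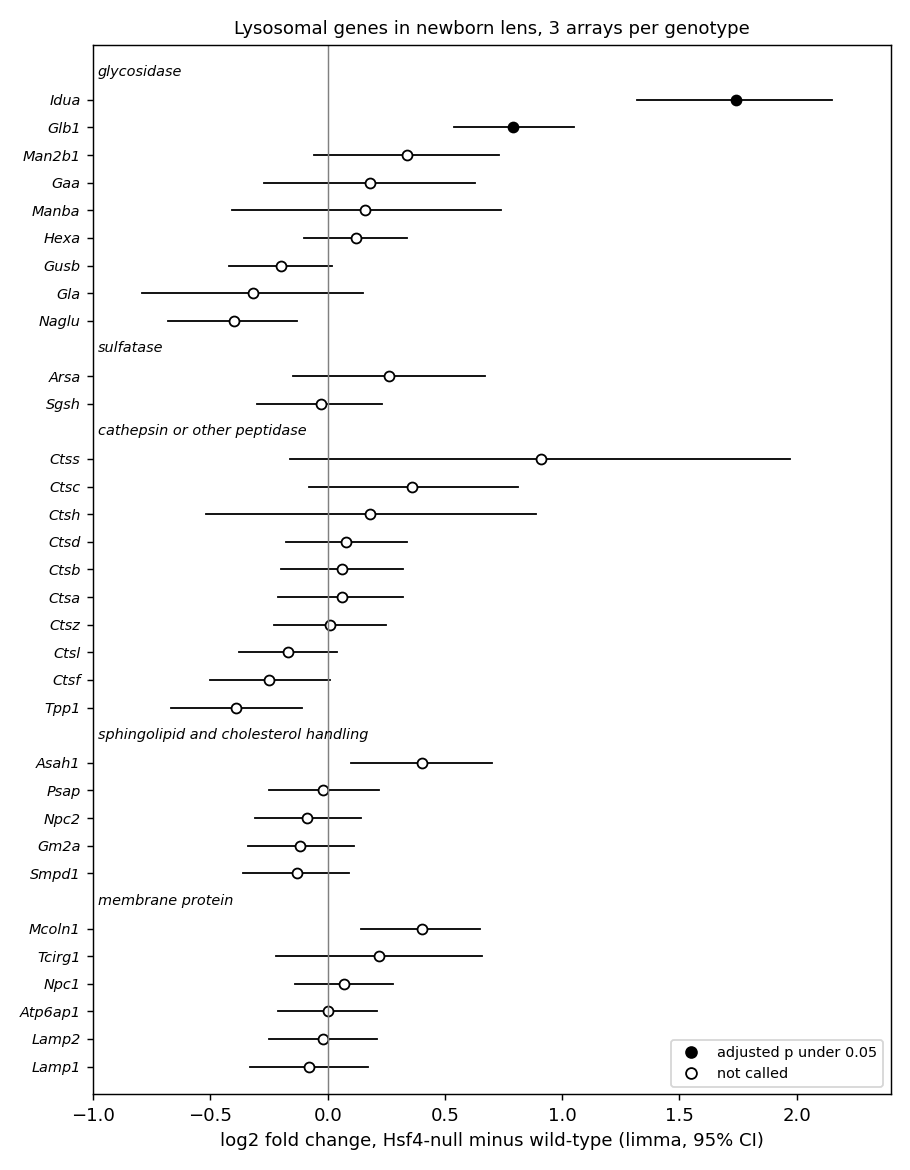
Log2 difference (Hsf4-null minus wild-type lenses, 3 arrays each) of the 32 lysosomal genes grouped by role, with 95% confidence intervals from limma as bars. Idua at 1.74 and Glb1 at 0.79 passed an adjusted p under 0.05, and most other genes lie near 0.

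Among the glycosidases, Idua removes iduronic acid from dermatan sulfate and heparan sulfate. Its log2 intensities were 9.68, 9.99 and 9.75 in Hsf4-null lenses, against 7.87, 7.88 and 8.46 in wild-type lenses. Each Hsf4-null array lay above each wild-type array. The means were 9.81 ± 0.16 in Hsf4-null and 8.07 ± 0.34 in wild-type lenses (SD, n = 3 each), a difference of 1.74 (SE 0.18, 95% interval 1.32 to 2.15, limma adjusted p = 0.00235). The increase rests on 1 of the 2 probe sets for Idua. The further probe set was dim, at 3.83, 3.94 and 3.98 in Hsf4-null lenses and 3.72, 3.80 and 4.16 in wild-type lenses, below every array's median, and did not pass (difference 0.03, adjusted p = 0.952).

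Glb1 cleaves terminal galactose from GM1 ganglioside and from keratan sulfate. Its single probe set read 8.45, 8.57 and 8.40 in Hsf4-null lenses, against 7.82, 7.68 and 7.55 in wild-type lenses. The groups did not overlap, and replicates of a genotype lay close together. The means were 8.48 ± 0.09 in Hsf4-null and 7.68 ± 0.14 in wild-type lenses (SD, n = 3 each), a difference of 0.79 (SE 0.11, 95% interval 0.54 to 1.05, limma adjusted p = 0.00969).

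Both genes share their stretch of the genome with others in the RefSeq annotation of GRCm38.p6. The span of Idua on chromosome 5 contains Slc26a1, a sulfate anion transporter gene, and overlaps an end of Dgkq, a diacylglycerol kinase gene, and that of Glb1 on chromosome 9 contains Tmppe. Gm42151, which overlaps Idua in part, and Gm30254, inside Glb1, are long noncoding RNA genes that were not measured here. The probe sets of Slc26a1, Dgkq and Tmppe did not pass the test, but were dim, where a change in transcript is hard to see. Whether transcripts of neighbours add to the Idua and Glb1 values was not tested. Slc26a1 read 3.54, 3.57 and 3.57 in Hsf4-null lenses and 3.30, 3.54 and 3.57 in wild-type lenses (difference 0.09, adjusted p = 0.732). Dgkq differed by -0.02 (adjusted p = 0.954) and Tmppe by -0.05 (adjusted p = 0.887).

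The other 7 glycosidases did not pass. Naglu, which removes N-acetylglucosamine from heparan sulfate, had the most negative difference of all 32 genes, with log2 intensities of 5.65, 5.64 and 5.32 in Hsf4-null lenses, against 5.99, 5.90 and 5.93 in wild-type lenses. The groups did not overlap, but the difference of -0.40 (SE 0.12, 95% interval -0.68 to -0.13) had an adjusted p of 0.154 in limma. Gusb, beta-glucuronidase, acts on the same glycosaminoglycans, and read 8.84, 8.88 and 8.76 in Hsf4-null lenses and 8.99, 8.98 and 9.12 in wild-type lenses (difference -0.20, adjusted p = 0.375). Hexa, the alpha subunit of beta-hexosaminidase, read 9.92, 9.86 and 9.95 in Hsf4-null lenses and 9.69, 9.86 and 9.83 in wild-type lenses. Its difference was 0.12 (95% interval -0.10 to 0.34), with the nearest arrays of the 2 genotypes equal at the printed precision. The differences of Man2b1 (alpha-mannosidase) and Gaa (acid alpha-glucosidase) were 0.34 (95% interval -0.06 to 0.73) and 0.18 (-0.27 to 0.63). Those of Manba (beta-mannosidase) and Gla (alpha-galactosidase A) were 0.16 (95% interval -0.41 to 0.74) and -0.32 (-0.79 to 0.15). Over all 9 glycosidases the median difference was 0.16.

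The 2 measured sulfatases had dim probe sets. Sgsh, which removes sulfate from heparan sulfate, read 4.15, 4.28 and 4.15 in Hsf4-null lenses, against 4.23, 4.40 and 4.06 in wild-type lenses (difference -0.03, 95% interval -0.30 to 0.23). Arsa, which desulfates sulfatide, read 4.64, 4.65 and 5.18 in Hsf4-null lenses, against 4.74, 4.60 and 4.35 in wild-type lenses (difference 0.26, 95% interval -0.15 to 0.67). The genotypes overlapped in both, and both probe sets lay below array medians, where a change in transcript is hard to see. The heparan sulfate enzymes among the chosen genes thus had a call for Idua and none for Naglu, Sgsh and Gusb, whose differences were negative. Ids and Hgsnat, heparan sulfate enzymes measured outside the chosen genes, had positive differences and did not pass. Ids, with a dim probe set, differed by 0.39 without overlap of the groups (limma adjusted p = 0.197). Hgsnat differed by 0.16 with overlap (limma adjusted p = 0.671).

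**Figure D2:**
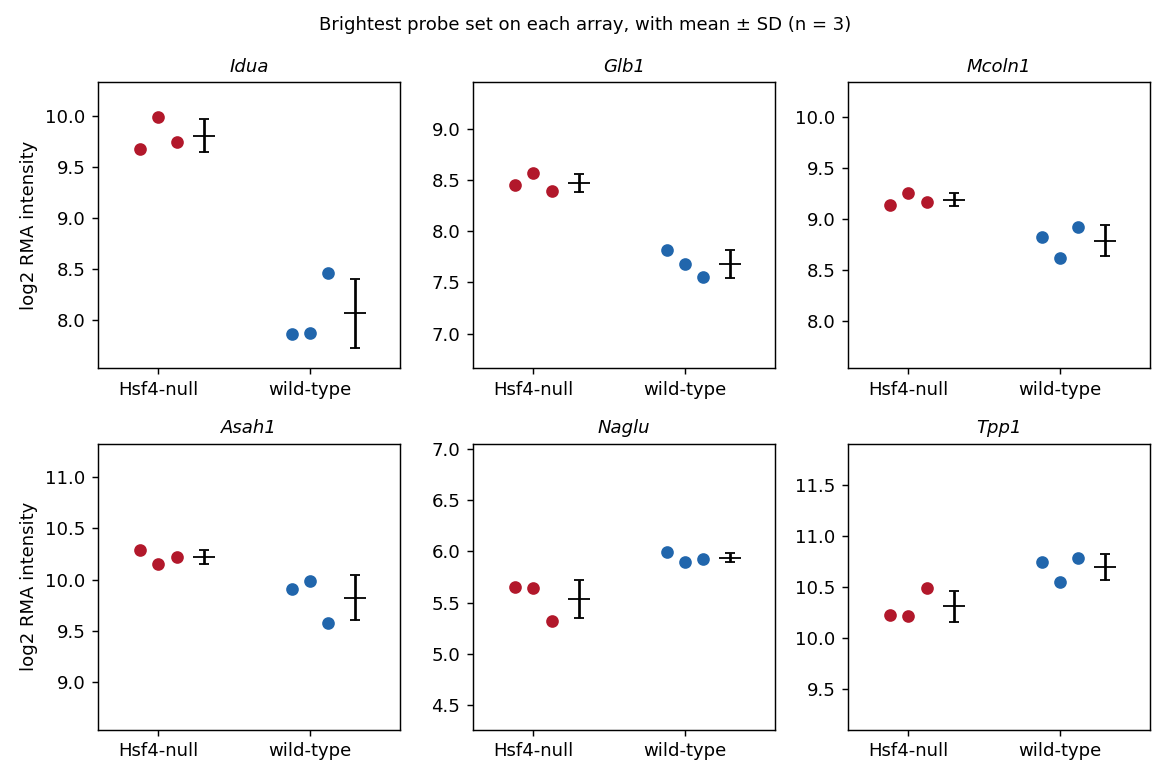
Log2 intensity of the brightest probe set on each array (coloured points), with group mean and SD (black, n = 3), for Idua, Glb1, Mcoln1, Asah1, Naglu and Tpp1, Hsf4-null left of wild-type lenses. The groups do not overlap in any of the 6, with higher Hsf4-null values for the first 4 and lower ones for Naglu and Tpp1, and stand furthest apart for Idua (9.68 to 9.99 in Hsf4-null, 7.87 to 8.46 in wild-type lenses).

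None of the 9 cathepsins passed in limma (0 also at an unadjusted p under 0.05), and their median difference was 0.06, with 7 positive and 2 negative. Ctsl, a cysteine protease, read 11.22, 11.16 and 11.10 in Hsf4-null lenses, against 11.35, 11.28 and 11.34 in wild-type lenses. Every Hsf4-null array was the lower, by a difference of -0.17 (SE 0.09, 95% interval -0.38 to 0.04, adjusted p = 0.439). Ctsd, the main aspartic protease of lysosomes, read 10.77, 10.60 and 10.86 in Hsf4-null lenses and 10.73, 10.71 and 10.53 in wild-type lenses (difference 0.08, 95% interval -0.18 to 0.34). Ctsb, a cysteine protease, differed by 0.06 (95% interval -0.20 to 0.32), and 3 further probe sets of it by -0.25, 0.02 and 0.09. Ctsa, a carboxypeptidase that also protects beta-galactosidase, differed by 0.06 (95% interval -0.21 to 0.32), and Ctsz, another carboxypeptidase, by 0.01 (95% interval -0.23 to 0.25). Ctsf, a cysteine protease, read 7.67, 7.42 and 7.48 in Hsf4-null lenses and 7.75, 7.89 and 7.68 in wild-type lenses, again without overlap (difference -0.25, adjusted p = 0.337).

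Tpp1, a tripeptidyl peptidase that is no cathepsin, read 10.23, 10.22 and 10.49 in Hsf4-null lenses, against 10.75, 10.55 and 10.79 in wild-type lenses. The groups did not overlap and the difference was -0.39 (SE 0.12, 95% interval -0.67 to -0.11, adjusted p = 0.173). Its further probe set ran the same way, at 9.33, 9.44 and 9.33 in Hsf4-null lenses and 9.77, 9.54 and 9.59 in wild-type lenses (difference -0.27, adjusted p = 0.272).

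Cathepsin S, Ctss, had the largest difference among those of the 32 genes that did not pass, and the largest SD of the 32. Ctss, a protease abundant in macrophages and other antigen-presenting cells, read 8.52, 7.40 and 8.28 in Hsf4-null lenses, against 7.85, 7.52 and 6.12 in wild-type lenses. The groups overlapped, and the difference of 0.91 (SE 0.46, 95% interval -0.16 to 1.97, adjusted p = 0.407) stood beside SDs of 0.59 in Hsf4-null and 0.92 in wild-type lenses. Ctsh, an aminopeptidase, read 8.40, 7.58 and 7.89 in Hsf4-null lenses and 8.27, 7.89 and 7.16 in wild-type lenses (difference 0.18). Ctsc, which activates granule serine proteases, read 8.58, 8.33 and 8.40 in Hsf4-null lenses and 8.31, 8.29 and 7.61 in wild-type lenses (difference 0.36). In all 3 genes the lowest array was wild-type replicate 3. That array was the lowest of 6 for 12 of the 32 lysosomal genes, with a median deviation from the 6-array mean of -0.05. Without it the differences were 0.38 for Ctss, -0.12 for Ctsh and 0.14 for Ctsc. These 3 genes, and this comparison, were singled out after their values were seen.

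Macrophage markers varied over the same arrays. Their summed linear intensity over 17 genes was 2540, 1378 and 1945 in Hsf4-null lenses, against 1797, 1709 and 709 in wild-type lenses. Wild-type replicate 3 was the lowest array for 15 of the 17, with a median deviation of -0.91. None of the 17 passed the test, 5 were higher in Hsf4-null lenses at an unadjusted limma p under 0.05 (29.4%, beside 7.34% of all genes), and 12 lay below an array median on at least 1 array. No marker has a value of 0, since the deposited intensities hold none. Of 9 pigment cell markers, 6 were also lowest on wild-type replicate 3, while 2 were highest there. Their sums were 1043 to 2094 in Hsf4-null lenses and 428.4 to 1267 in wild-type lenses. None of the 9 passed, and 3 were higher in Hsf4-null lenses at an unadjusted limma p under 0.05 (33.3%, beside 7.34% of all genes). The part of these cells in the cathepsin values was not tested. In RNA from whole lenses, fewer cells of a type and less RNA per cell cannot be told apart.

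**Figure D3:**
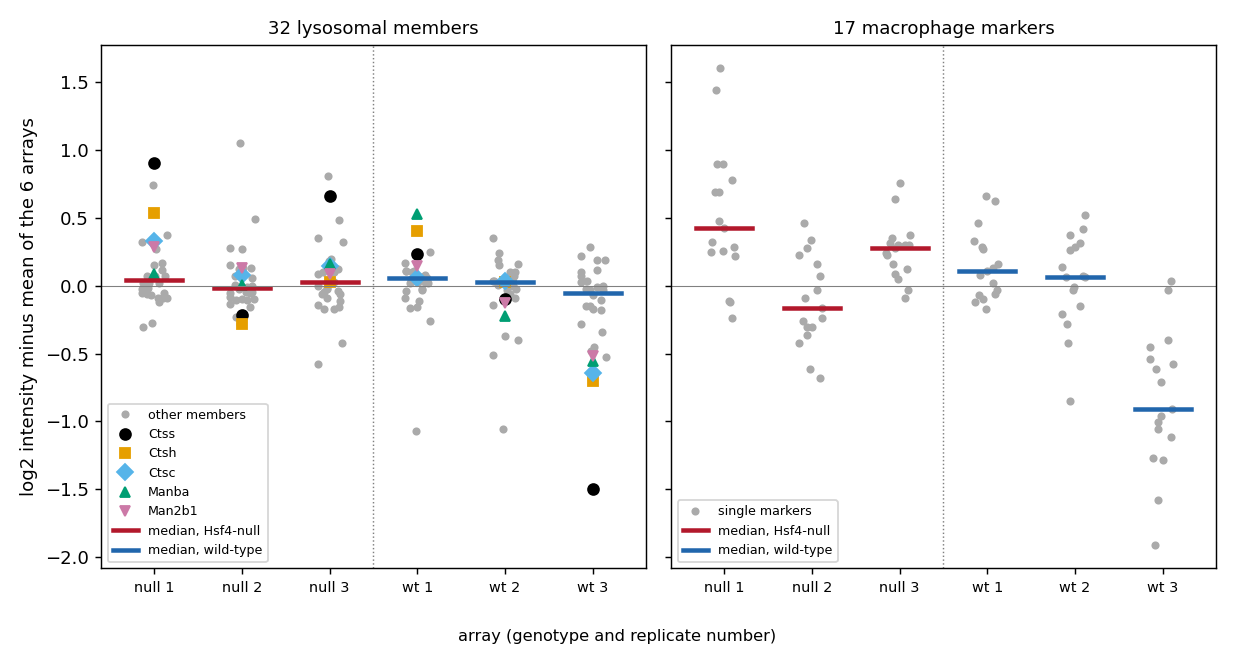
Log2 intensity of each gene minus its mean over the 6 arrays (points, 1 per gene and array) with the median of each array (bars), for the 32 lysosomal genes on the left and 17 macrophage markers on the right, Hsf4-null arrays left of wild-type arrays. The medians of the lysosomal genes lie within 0.05 of 0 on every array, while the macrophage markers fall to a median of -0.91 on wild-type replicate 3, where Ctss, Ctsh and Ctsc are also lowest.

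Of the markers of tissue around the lens, 2 mesenchyme genes passed the test. Summed intensities of 10 mesenchyme markers were 1185 to 1389 in Hsf4-null and 670.9 to 927.4 in wild-type lenses. Such a sum is weighted to bright probe sets, and Col1a1 averaged 9.27 in Hsf4-null and 7.37 in wild-type lenses (difference 1.89). Col1a2 and Col3a1 differed by 0.07 and 0.17. Differences were positive for 8 of the 10 and negative for 2, with a median of 0.18. At an adjusted p under 0.05 in limma, 2 of the 10 were higher, Col1a1 and Twist1 (20.0%, beside 0.775% of all genes). The probe set of Twist1 was dim, at 5.05, 4.74 and 4.97 in Hsf4-null lenses and 3.95, 3.97 and 3.84 in wild-type lenses. The summed intensities of 14 vascular markers were 7814 to 8192 in Hsf4-null and 4954 to 7355 in wild-type lenses. Of the 14, 0 were called by limma and 4 were higher at an unadjusted p under 0.05 (28.6%, beside 7.34% of all genes). Lens epithelium markers, 6 genes, summed to 13420 to 15210 in Hsf4-null and 12990 to 14560 in wild-type lenses. Of these 6, 0 were called and 1 was lower at an unadjusted p under 0.05 (16.7%, beside 8.38% of all genes). Retina, cornea and skin, and blood markers had 0 called genes, and 1, 0 and 2 were higher at an unadjusted p under 0.05. The part of these cells in the Idua and Glb1 increases was not tested.

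Genes of sphingolipid and cholesterol handling had differences from -0.13 to 0.40, and none passed the test. Asah1, acid ceramidase, read 10.29, 10.15 and 10.22 in Hsf4-null lenses, against 9.91, 9.99 and 9.57 in wild-type lenses. Every Hsf4-null array was the higher, and the difference of 0.40 (SE 0.13, 95% interval 0.10 to 0.70) had an adjusted p of 0.197 in limma. The other 4 genes had negative differences and did not pass. Psap, the precursor of the saposins that present sphingolipids to the hydrolases, differed by -0.02 (95% interval -0.25 to 0.22). Gm2a, the activator of ganglioside breakdown, differed by -0.12 (95% interval -0.34 to 0.11), and Smpd1, acid sphingomyelinase, by -0.13 (95% interval -0.36 to 0.09). Npc2, which binds cholesterol in the lumen, differed by -0.09 (95% interval -0.31 to 0.14). The intervals of these 4 genes all lie within 0.5 of 0 on the log2 scale.

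Among membrane proteins, Mcoln1, a calcium and cation channel of the lysosome, came nearest to the threshold among those of the 32 genes that did not pass. Its log2 intensities were 9.14, 9.26 and 9.17 in Hsf4-null lenses, against 8.83, 8.62 and 8.92 in wild-type lenses. The groups did not overlap, and the difference was 0.40 (SE 0.11, 95% interval 0.14 to 0.65, limma adjusted p = 0.13). A further probe set ran the same way, at 6.82, 7.36 and 7.18 in Hsf4-null lenses and 6.62, 6.72 and 6.52 in wild-type lenses (difference 0.50, SE 0.15, adjusted p = 0.158).

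The intervals of the structural glycoproteins of the membrane include 0 and lie within 0.5 of it. Lamp1 read 11.58, 11.80 and 11.51 in Hsf4-null lenses, against 11.73, 11.74 and 11.66 in wild-type lenses (difference -0.08, 95% interval -0.33 to 0.17). Lamp2, which also serves chaperone-mediated autophagy, read 11.13, 11.32 and 11.11 in Hsf4-null lenses, against 11.23, 11.23 and 11.17 in wild-type lenses (difference -0.02, 95% interval -0.25 to 0.21), and its 3 further probe sets differed by -0.16, 0.18 and -0.16. Lamp1, Lamp2 and Ctsl are given array by array because their probe sets had the 3 highest mean intensities, and Sgsh, Arsa and Tcirg1 because theirs had the 3 lowest, which does not compare the transcripts. Tcirg1, a subunit of the proton pump, was dim, at 4.76, 5.34 and 5.42 in Hsf4-null lenses and 5.17, 4.92 and 4.78 in wild-type lenses (difference 0.22, 95% interval -0.22 to 0.66). Npc1, the cholesterol exporter, differed by 0.07 (95% interval -0.14 to 0.28), and Atp6ap1, an accessory protein of the proton pump, by 0.00 (95% interval -0.21 to 0.21).

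Groups without overlap were found for 12 of the 32 genes (37.5%), beside 21.7% of all genes on the array, which include a larger share of dim probe sets. Of the 12, 7 had higher values in Hsf4-null lenses (10.1% of all genes did) and 5 had lower values (11.5% of all genes did). Of the 30 genes that did not pass, 29 have an interval that lies within a difference of 1 either way, and 16 within 0.5. The exception to the wider bound is Ctss. Standard errors were 0.09 to 0.46, with a median of 0.11.

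**Figure D4:**
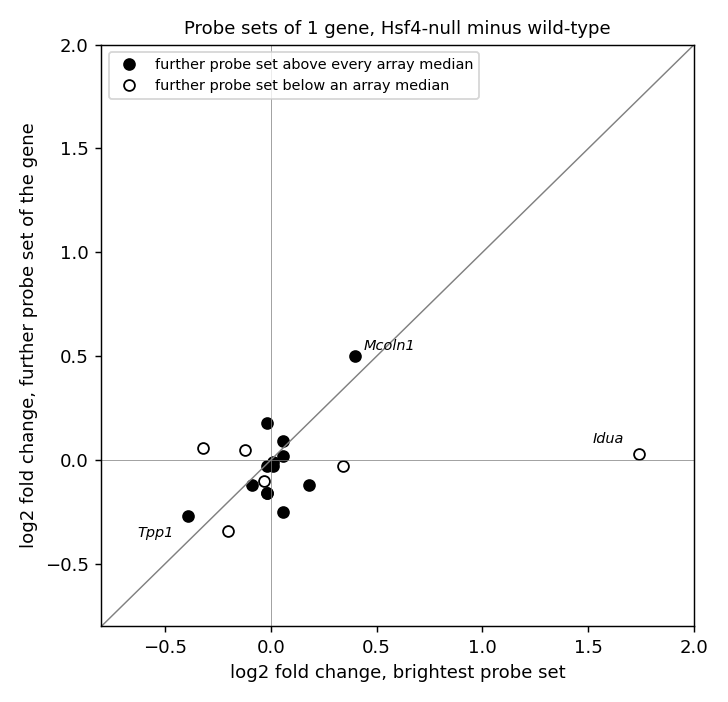
Log2 difference (Hsf4-null minus wild-type) of each further probe set against that of the brightest probe set of the same gene, for the 14 genes with more than 1. The further probe set of Mcoln1 lies at 0.50 beside 0.40, that of Tpp1 at -0.27 beside -0.39, and the dim one of Idua at 0.03 beside 1.74.

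Of the 32 genes, 14 had more than 1 probe set, with 19 further probe sets, of which 13 lay above every array's median. Of the 19, 0 passed the test in limma and 2 had an unadjusted p under 0.05, those of Mcoln1 and Tpp1. The remaining 18 genes, Glb1 among them, had 1 probe set each.

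Promoter sequences of the genes that passed and of 2 that moved less are shown because they differ in the E-box, the sequence that Tfeb binds in lysosomal genes. The lines give the 250 bases before each gene's start, from RefSeq, build GRCm38.p6, plus strand, with the letters of each CACGTG in capitals: chr5:108660081-108660330 for Idua, chr9:114400828-114401077 for Glb1, chr8:3500269-3500518 for Mcoln1 and chr11:101069844-101070093 for Naglu.
Idua: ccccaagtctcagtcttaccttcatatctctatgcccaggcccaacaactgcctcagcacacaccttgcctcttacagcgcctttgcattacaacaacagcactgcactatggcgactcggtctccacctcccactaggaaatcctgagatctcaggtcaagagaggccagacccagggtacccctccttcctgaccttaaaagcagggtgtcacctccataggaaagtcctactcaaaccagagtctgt
Glb1: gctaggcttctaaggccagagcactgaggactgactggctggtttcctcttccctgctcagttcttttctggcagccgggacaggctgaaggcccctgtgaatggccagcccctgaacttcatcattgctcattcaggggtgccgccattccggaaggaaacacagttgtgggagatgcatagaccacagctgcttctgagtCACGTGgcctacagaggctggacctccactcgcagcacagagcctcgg
Mcoln1: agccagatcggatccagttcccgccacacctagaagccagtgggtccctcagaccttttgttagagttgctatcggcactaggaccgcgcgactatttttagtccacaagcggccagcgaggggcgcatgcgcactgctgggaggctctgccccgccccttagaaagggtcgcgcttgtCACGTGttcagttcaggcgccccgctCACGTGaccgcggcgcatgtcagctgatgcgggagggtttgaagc
Naglu: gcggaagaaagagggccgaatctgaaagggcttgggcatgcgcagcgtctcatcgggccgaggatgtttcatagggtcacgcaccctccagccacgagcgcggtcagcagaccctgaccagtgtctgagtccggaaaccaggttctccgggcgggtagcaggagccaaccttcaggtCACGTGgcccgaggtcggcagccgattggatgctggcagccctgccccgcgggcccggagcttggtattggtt
Glb1 has 1 E-box, which begins 48 bases before the start, Naglu has 1 at 73 bases, and Mcoln1 has 2 at 71 and 45 bases, while Idua has none in these bases. Among the genes shown, which were picked for differing in it, the E-box was found for Glb1 (higher) and Naglu (negative difference). It was not found for Idua, the gene with the largest increase. Tpp1, which is not shown and differed by -0.39, had none in its window, and Asah1 had no window to search.

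Over the 28 genes that RefSeq's promoter table holds, with 32 windows of 300 bases (250 before to 50 after the start) and both strands searched, the E-box CACGTG was found in 12 genes (42.9%), beside 10.8% of the genes on the array. The longer form TCACGTG, which always contains the first, was found in 10 genes (35.7%), beside 6.09% of the genes on the array. The heat shock element, searched as the 3 units GAA, TTC and GAA in a row with 2 free bases between neighbours, was in none of the windows, beside 0.494% of the windows of genes on the array. Its shorter forms with 2 free bases between the units were each found in 2 genes (7.14%), GAA then TTC in Arsa and Ctss, beside 7.55% of the genes on the array, and TTC then GAA in Glb1 and Psap, beside 8.56%. A match is a description of letters and not a site, and no match says only that the letters are not in the window.

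Beyond the chosen genes, 131 other genes of the lysosome were listed by role and 106 were measured. Of these, 0 were higher and 1 was lower at an adjusted p under 0.05 from limma (0.943%, beside 2.11% of all genes lower). The counts with an unadjusted p below that threshold were 8 higher (7.55%, beside 7.34% of all genes) and 11 lower (10.4%, beside 8.38%). The 1 was Dnase2b, the acid nuclease of fiber cell denucleation, with log2 intensities of 9.27, 9.31 and 9.59 in Hsf4-null lenses, against 10.47, 10.61 and 10.81 in wild-type lenses (difference -1.24, SE 0.13, 95% interval -1.55 to -0.93, adjusted p = 0.0028). The groups did not overlap. Median differences by list were -0.01 for 27 other enzymes, 0.02 for 19 other membrane proteins, -0.02 for 18 subunits of the proton pump, 0.00 for 22 sorting proteins, 0.09 for 14 regulators and 0.14 for 6 inhibitors of cysteine proteases. Tmem192, a membrane protein, read 6.80, 6.79 and 6.37 in Hsf4-null lenses, against 7.35, 7.24 and 7.64 in wild-type lenses, just outside the threshold (difference -0.76, adjusted p = 0.0534). Rragc, a GTPase of the lysosomal nutrient sensor, differed by -0.48 (adjusted p = 0.0817) and Tfeb by -0.28 (adjusted p = 0.323).

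**Figure D5:**
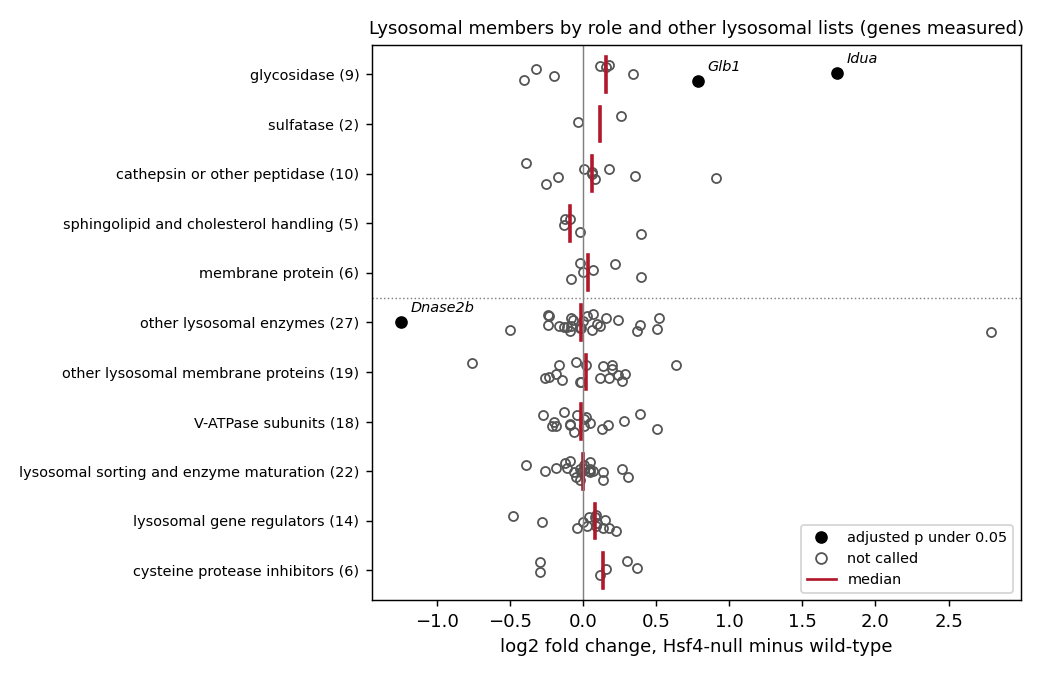
Log2 difference (Hsf4-null minus wild-type, 3 arrays each) of each measured gene (points) with the median (bar), for the 32 chosen lysosomal genes by role (above the dotted line) and the 6 further lists of lysosomal genes. Medians of the further lists lie between -0.02 and 0.14, and Idua, Glb1 and Dnase2b passed the test, while the point at 2.79 is Galc, which did not (adjusted p = 0.249).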

How the data were processed

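Transcripts of lens RNA in 3 preparations from Hsf4-null and 3 from wild-type newborn mice were measured on Affymetrix arrays. Per the labels, RMA was used by the authors, who deposited 1 linear intensity for each probe set on each array, from 7.19 to 21210.5. The RMA version is not stated in the labels or methods used here. No detection calls were used, so low intensities carry little information. The number of arrays limits the precision.

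Log2 was taken of the deposited intensity, and the genotypes were compared by limma 3.58.1 (lmFit, then eBayes, two-sided, in R 4.3.3) over 22626 probe sets, after 64 array controls of 22690 were left out, with Benjamini-Hochberg adjustment over all of them and calls at an adjusted p under 0.05. Intervals are at 95%. Of these, 20380 carry 1 gene symbol, 691 several and 1555 are unnamed here, and 20351 symbols were updated through the gene identifier to RefSeq GRCm38.p6. Each of 12393 genes was read from its brightest probe set over the 6 arrays. An exact permutation test of 1 gene over 3 and 3 arrays has 0.1 as its smallest p, so p-values rest on the model. The arrays are called biological replicates in the labels, and p-values measure the spread between these preparations.

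The rule for genes given array by array took those called, those not called but without overlap at an unadjusted p under 0.05, the 3 brightest and 3 dimmest, and the called genes of the other lysosomal lists. Gusb, Hexa, Ctsd, Ctsf, Ctss, Ctsh, Ctsc, Bfsp1, Tmem192, Slc26a1 and, in the closing section, Galc were added after their values were seen. The members and lists were chosen with earlier results of these data known. Alternatives were the replicate block, the t-test named in the methods alone (their second criterion, SAM, was not run here), trended variance, array weights, other scalings, a filter on dim probe sets, other ways to represent a gene, a fold of 1.5 and leaving out each array.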

Additional observations from a re-analysis of the deposited data

How the results depend on the processing

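Idua and Glb1 were the 2 lysosomal genes called under each of the alternatives tried, including each of the 6 fits without 1 array (2 to 2 called), except the t-test of the methods. That test called 8 of the 32 genes unadjusted (4 higher and 4 lower), beside 2912 of 22626 probe sets (1204 higher and 1708 lower). After Benjamini-Hochberg adjustment it called 0 of the 32, beside 85 of the probe sets. Over all alternatives the difference of Idua was 0.88 to 1.93, the lower end being the mean of its 2 probe sets, and that of Glb1 0.72 to 0.86. Mcoln1, Asah1, Naglu and Tpp1 kept their directions and passed only the unadjusted t-test. Ctsh, not called, turned to -0.12 without wild-type replicate 3, an alternative chosen after seeing the data. The median of the 32 genes, 0.06, was -0.01 to 0.09 when 1 array was left out, at 0.00 on leaving out Hsf4-null replicate 1 and at -0.01 on leaving out wild-type replicate 3.

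Of other lysosomal genes, 1 was called, and 1 to 1 without any 1 array. The unadjusted t-test called 17 of 106 (5 higher and 12 lower), and 0 after its adjustment. The counts were 3 with trended and robust variance, which adds Tmem192 and Rragc, and 2 without dim probe sets or with the mean of all probe sets of a gene, which adds Tmem192. Of all 22626 probe sets, 602 were called, against 2912 with the unadjusted t-test and 85 after its adjustment. With adjustment over 1 probe set per gene, 366 of 12393 genes were called, beside 357 of them with adjustment over all probe sets. The count was 321 to 562 without 1 array, with 321 on leaving out Hsf4-null replicate 3, 335 on leaving out wild-type replicate 2 and 358 on leaving out wild-type replicate 3. The replicate number as a block gave 382 probe sets and the same 2 lysosomal genes. Deviations of arrays with the same number had correlations of 0.25, -0.21 and -0.08 for numbers 1, 2 and 3. Between different numbers they ran from -0.38 (Hsf4-null 1 with wild-type 3) to 0.41 (Hsf4-null 2 with wild-type 3). The deviations are from a mean of 3 arrays, which ties them to each other. Whether arrays with the same number share more than the number was not tested. The cause of the changes in these counts of calls was not tested. Dim probe sets, as for Sgsh, Arsa and Tcirg1, limit what can be seen.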

Other observations

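Galc, galactosylceramidase, which breaks down a myelin lipid, was singled out after its values were seen for the spread of its brightest probe set. This read 9.05, 9.20 and 9.11 in Hsf4-null lenses, against 3.65, 8.45 and 6.91 in wild-type lenses (difference 2.79, SE 1.02, limma adjusted p = 0.249). The 3 wild-type arrays thus differed among themselves by more than the genotypes did. A further probe set of Galc averaged 6.08 ± 0.07 in Hsf4-null lenses and 6.34 ± 0.29 in wild-type lenses (SD, n = 3 each, difference -0.26), and the remaining one, which was dim, differed by 0.02.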
